A study of Mus musculus with 29 samples.

Results

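The enzymes that modify and conjugate foreign compounds were examined in kidney, in renal tertiary lymphoid structures (TLS) and in lymph nodes of lupus-prone mice. The members were all genes of the deposited expression table whose symbol places them among the cytochromes P450 (Cyp), the UDP-glucuronosyltransferases (Ugt), the soluble and kappa-class glutathione S-transferases (Gst), the sulfotransferases (Sult) or the carboxylesterases (Ces), irrespective of their values. Of 13982 genes listed, 75 were members, comprising 36 Cyp, 13 Ugt, 17 Gst, 3 Sult and 6 Ces genes. The study followed (NZBxNZW)F1 (NZB/W) mice, a cross that develops lupus nephritis spontaneously, and sequenced poly(A) RNA on the Ion Torrent PGM. All groups carried the same hybrid background, and the labels name no transgene or deletion. Proteinuric mice gave 4 kidneys (mice H6, H20, H115 and H117, aged 39, 36, 25 and 32 weeks), 3 TLS (H6, H20 and H115) and 3 lymph nodes (H6, H20 and H117). Mice labelled antibody positive (anti-dsDNA) for under 5 weeks gave 3 lymph nodes (D10, D11 and L25, aged 28, 29 and 18 weeks). The labels do not state the proteinuria of these mice. A 4-week-old mouse gave 1 lymph node (C45). TLS were cut out by hand from the kidney under a loupe, and the kidney sample was tissue of the same organ, so neither sample is a pure cell population. The antibody-positive lymph nodes were extracted with miRNeasy and all other samples with TRIzol, so disease state and kit cannot be told apart. The proteinuric mice that gave lymph nodes were also older (32 to 39 weeks) than the antibody-positive mice (18 to 29 weeks). Age therefore cannot be told apart from disease state either. A further 15 samples of the series, whole kidneys sequenced on another platform, were not analysed here.

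These families act in sequence. Cytochromes P450 are haem enzymes that oxidise lipophilic drugs, steroids and fatty acids, drawing electrons from the reductase Por and from cytochrome b5, and carboxylesterases hydrolyse ester and amide drugs and lipids. Ugt, Gst and Sult enzymes then attach glucuronic acid, glutathione or sulfate, which makes the products soluble and ready for export. After the liver, the kidney is a main site of this chemistry, and within the kidney most of it resides in the proximal tubule, which also takes up and secretes the conjugates. Members of the Cyp4a and Cyp2j groups act mainly on fatty acids, converting arachidonic acid into hydroxylated and epoxidised lipids, and a few Cyp genes build steroid hormones or handle vitamin D and cholesterol.

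Values are normalized read counts, i.e. reads divided by the library size factor of the authors, after taking off the 1 read that each deposited value holds in addition; in each list the values follow the order of mice given above. Libraries held 343825 to 443379 reads, so 3 reads corresponded to 2.36 to 5.32 normalized reads, and precision at low levels was limited by these counts. In 3 libraries (kidney H117, TLS H115 and lymph node H6) over 20% of reads fell on ribosomal RNA genes, most in kidney H117 (55.6%), which left 167440 other reads there. Marker genes fitted the tissue labels: 5 B cell markers summed to 0 to 23.6 in kidney, 318 to 467 in TLS and 591 to 887 in lymph nodes of proteinuric mice, while 11 proximal tubule markers summed to 5755 to 16872, 991 to 6792 and 17.4 to 35.6, respectively. Every TLS thus contained tubule RNA, and in bulk tissue fewer cells of a type and less RNA per cell cannot be told apart. Differences were tested with limma on log2(deposited value + 1) in genes with a mean deposited value of at least 5, and DE genes are those with a Benjamini-Hochberg adjusted P below 0.05 over all genes tested. Fold changes are on that scale, give the first-named tissue relative to the second and understate the change of low genes. The tissue comparisons share libraries, so their results are not independent of each other.

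The summed level of the 75 members was 2966 ± 867 in kidney (mean ± SD, n = 4), 1322 ± 526 in TLS (n = 3) and 289 ± 54.6 in lymph nodes of proteinuric mice (n = 3). The share of the kidney level found in TLS was taken by family; differences between families were not tested. Ugt sums were 344, 276, 666 and 376 in kidney and 33.9, 108 and 148 in TLS, a mean of 23.2% ± 13.95 (SD) of the kidney level, and no Ugt read was found in any of the 7 lymph nodes. Ces sums reached 23.9% ± 10.0 of the kidney level in TLS and Cyp sums 34.3% ± 15.1. For Gst, 977, 967, 1722 and 1033 in kidney compared with 633, 507 and 1117 in TLS, which was 64.0% ± 27.4. Sult sums ranged in TLS from 12.7 to 100.3 against 90.5 to 194 in kidney (45.1% ± 33.3). TLS H6 had the lowest sum of every family except Gst, where TLS H20 was lowest. Sums weigh each gene by its reads and were not tested.

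**Figure D1:**
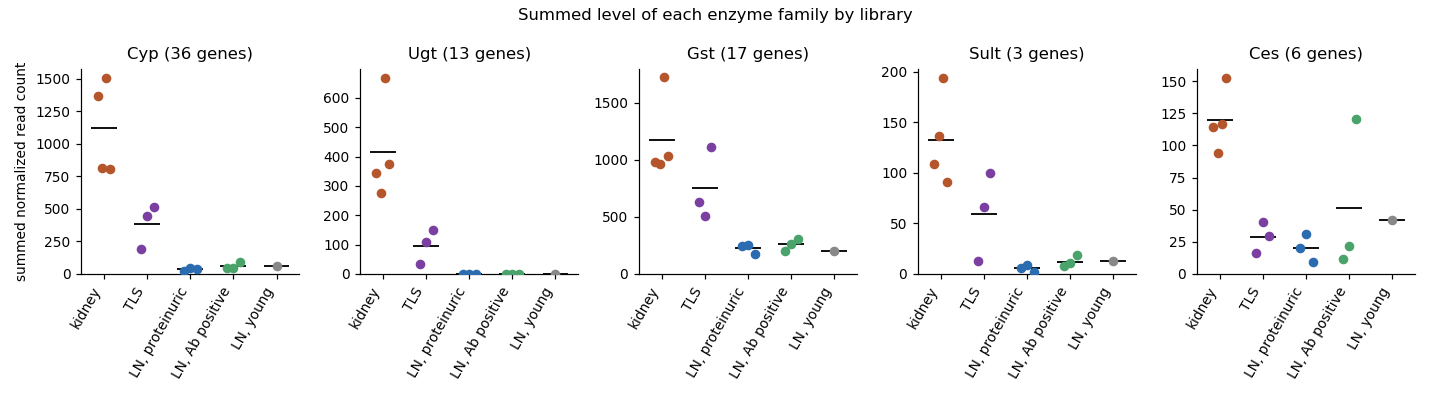
Summed normalized read counts of each enzyme family (y axis, one panel per family) in the 14 libraries grouped by tissue and disease state, with bars at group means. The kidney mean was highest in every family, the TLS mean lay between those of kidney and lymph node of proteinuric mice, and the Ugt sum was 0 in all 7 lymph nodes.

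At least 1 read was found for 66 members in kidney, 72 in TLS and 34 in lymph nodes. Of the 75, 14 had a read in every library and 41 had none in any lymph node. Cyp2u1 and Cyp17a1 had no read at all; with 3 reads as the limit of a count of 0, these stayed below 2.36 to 5.32 normalized reads in every library. Divided by exon length, the highest level in kidney was that of Gstm1 (238 ± 136 normalized reads per kb), followed by Gsta2 (154 ± 56.4), Cyp2a4 (88.7 ± 40), Cyp2j5 (87.7 ± 14.4), Gstp1 (83.5 ± 15.6) and Cyp4a10 (79.2 ± 40.3). Apart from Gsta2 and Cyp2a4, neighbours in this order differed by less than the larger of their SDs. In TLS Gstm1 (153 ± 85.1 per kb) and Gsta4 (108 ± 80 per kb) led, with overlapping SDs. In lymph nodes of proteinuric mice Gstp1 stood first (76.7 ± 18.6 per kb), ahead of Gstm1 (15.6 ± 4.21 per kb).

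**Figure D2:**
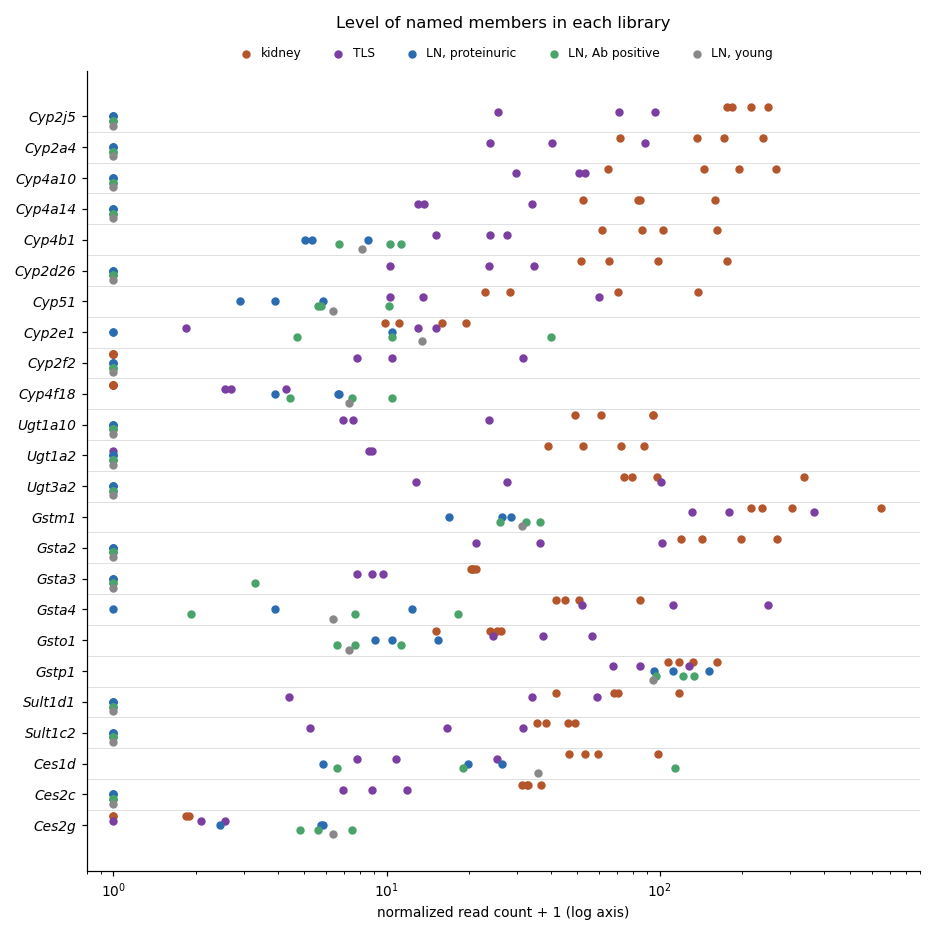
Normalized read count + 1 (log axis) of 24 named members in each library, coloured by tissue and disease state. Ugt1a10, for example, lies between 47.9 and 93.9 in kidney, between 5.94 and 22.8 in TLS and at 0 in lymph nodes, whereas Gstp1 lies between 66.5 and 162 in all libraries.

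Kidney and TLS of proteinuric mice were compared to ask which enzymes distinguish renal tissue from the lymphoid structures inside it. Of 49 members tested, 18 were higher in kidney and 1, Cyp2f2, was higher in TLS; among all 7382 genes tested, 6.07% were higher in kidney and 8.62% in TLS. With edgeR and TMM scaling, which moved the median log2 fold change of all genes from 0.01 to -0.11, these were 8 and 1 members, and the share of genes higher in kidney among all DE genes was 19.7% in place of 41.3%. The median log2 fold change of the members was 1.51, compared with 0.01 for all genes, and 42 members had a value above 0. Some members, such as Cyp2d22, Ugt1a1 and Cyp24a1, were low in TLS and had no read in lymph nodes of proteinuric mice. They passed the filter on the mean value only through kidney, so the direction of that part of these counts was set by the filter. DE genes higher in kidney comprised 8 of 19 Cyp, 3 of 9 Ugt, 4 of 15 Gst, 1 of 3 Sult and 2 of 3 Ces genes tested. The largest log2 fold changes towards kidney were those of Ugt1a2 and Ugt1a10. Without TLS H6, 10 of the 18 were lost (adjusted P 0.0686 to 0.224) and 9 DE members remained; over all genes, those higher in kidney fell likewise, from 448 to 146. Ces2c, Cyp2j5, Cyp4a14, Cyp4b1, Gsta3, Ugt1a10 and Ugt1a2 were DE whichever library was left out, but Cyp2j5 was not DE with edgeR (adjusted P = 0.0858 with TMM) and Gsta3 not with DESeq2 (adjusted P = 0.059).

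**Figure D3:**
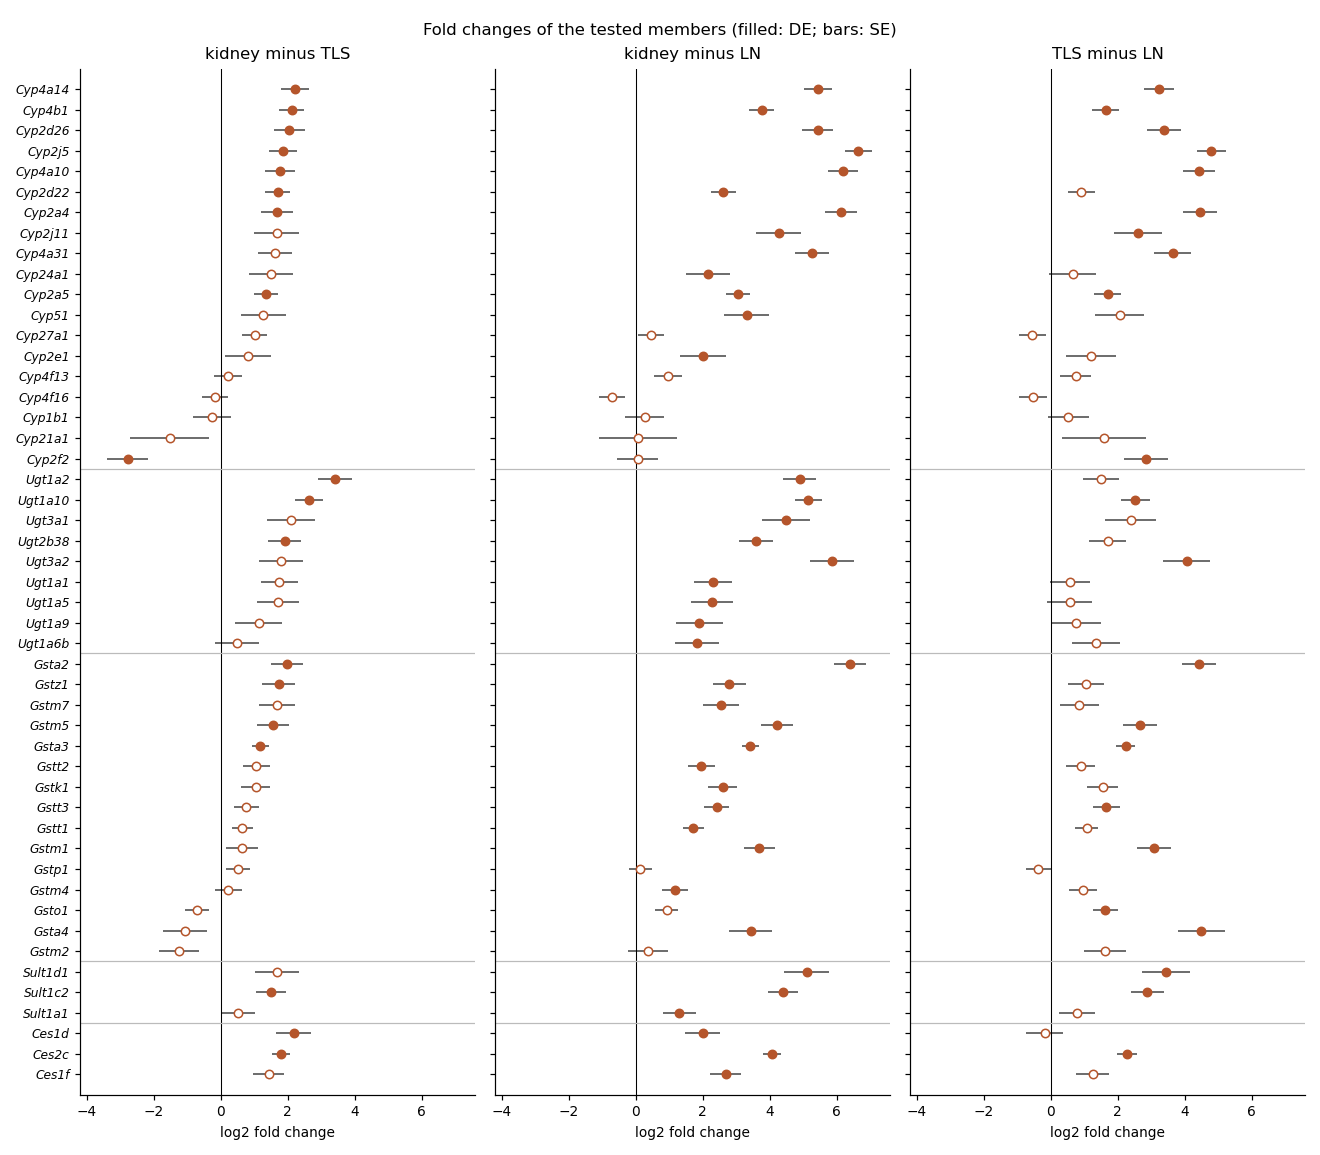
Log2 fold change ± SE of the 49 tested members in 3 comparisons of kidney, TLS and lymph node of proteinuric mice (filled symbols: DE, adjusted P below 0.05). In kidney versus TLS, 18 filled symbols lie above 0 and 1 (Cyp2f2) below; in the 2 comparisons with lymph node, all 40 and 22 filled symbols lie above 0.

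Among the Cyp1 to Cyp3 genes, whose products include the classic drug-oxidising enzymes, 5 of 9 tested were higher in kidney than in TLS. Cyp2j5, an epoxygenase of arachidonic acid abundant in mouse kidney, had 215, 175, 249 and 183 normalized reads in the kidneys and 24.6, 69.9 and 94.9 in TLS (log2 fold change 1.86 ± 0.41 (SE), adjusted P = 0.0094). Each TLS value was below each kidney value. Cyp2a4, a steroid hydroxylase, had 172, 70.9, 238 and 137 in kidney and 22.9, 39.3 and 87.2 in TLS (log2 fold change 1.67 ± 0.47 (SE), adjusted P = 0.0323), where TLS H115 overlapped kidney H20. Its close relative Cyp2a5, the coumarin hydroxylase, was far lower (8.43 to 23.2 and 3.14 to 7.63; log2 fold change 1.35 ± 0.36 (SE), adjusted P = 0.0253). Of the 100-base windows of Cyp2a4 and Cyp2a5, 11.2% and 12.1% occur in another gene, most often the other of the pair. Some reads could therefore be assigned to either. Both Cyp2a calls were lost without TLS H6 or without any of 4 other libraries. Cyp2d26 (50.4, 64.1, 176 and 97.6 in kidney; 9.33, 22.8 and 33.8 in TLS; log2 fold change 2.05 ± 0.47 (SE), adjusted P = 0.0113) and Cyp2d22 (7.59 to 16.2; 1.09 to 2.54; log2 fold change 1.70 ± 0.38 (SE), adjusted P = 0.00945), members of the group that includes the debrisoquine hydroxylases, did not overlap between the tissues. Cyp2d26 was not DE without TLS H6. Cyp2d22 passed the low-value filter only through kidney, so its direction was set by the filter, and it did not pass without kidney H115. Cyp2e1, which oxidises ethanol and small solvents, showed no such separation, with 15, 10.1, 18.5 and 8.87 in kidney and 0.848, 14.1 and 12 in TLS (log2 fold change 0.81 ± 0.70 (SE), adjusted P = 0.492). Cyp2j11, of the same group as Cyp2j5, had 23, 16.9, 84.6 and 58.6 in kidney and 2.54, 10.2 and 34.9 in TLS (log2 fold change 1.67 ± 0.68 (SE), adjusted P = 0.127; adjusted P = 0.0337 with mouse as a block), where TLS H115 lay within the kidney range. Cyp1b1 and Cyp2s1 were low: Cyp1b1 had 9.73, 12.7, 0 and 1.77 in kidney and 5.09, 10.2 and 3.27 in TLS, and Cyp2s1 did not exceed 3.54 in any library.

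The Cyp4 genes encode fatty acid omega-hydroxylases. Of 6 tested, Cyp4a10, Cyp4a14 and Cyp4b1 were higher in kidney than in TLS. Cyp4a14 had 159, 82.7, 83.4 and 51.5 in kidney and 12.7, 33 and 12 in TLS (log2 fold change 2.21 ± 0.42 (SE), adjusted P = 0.00378). Cyp4b1, which acts on short fatty acids and some protoxins, had 162, 85.2, 102 and 60.3 in kidney and 22.9, 26.7 and 14.2 in TLS (log2 fold change 2.12 ± 0.37 (SE), adjusted P = 0.00245) and kept 4.05 to 10.3 in the 7 lymph nodes. Neither gene overlapped between kidney and TLS. Cyp4a10 had 266, 144, 194 and 63.9 in kidney and 28.8, 49.5 and 52.3 in TLS (log2 fold change 1.77 ± 0.44 (SE), adjusted P = 0.0171), a call lost without TLS H6. Cyp4a31 showed similar values (133, 54.8, 136 and 33.7 in kidney and 12.7, 22 and 46.9 in TLS) but missed the threshold (log2 fold change 1.61 ± 0.51 (SE), adjusted P = 0.0541) and passed it with mouse as a block (adjusted P = 0.0105). Cyp4a12a and Cyp4a12b, near-identical hydroxylases known for their androgen-dependent expression in mouse kidney, were read almost only in kidney H6, at 20.3 and 22.1; kidney H20 had 4.22 and 2.53, and kidneys H115 and H117 had none. Neither passed the low-value filter.

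The remaining Cyp genes act on sterols and vitamin D. Cyp51, the lanosterol demethylase of cholesterol synthesis, had 27.4, 21.9, 137 and 69.2 in kidney and 9.33, 12.6 and 58.9 in TLS (log2 fold change 1.26 ± 0.67 (SE), adjusted P = 0.244; adjusted P = 0.0374 with mouse as a block). In both tissues mouse H115 was highest. Cyp24a1, which degrades vitamin D, was read in 3 kidneys (9.73, 11.8, 13.9 and 0) and hardly in TLS (0, 3.93 and 1.09; log2 fold change 1.51 ± 0.66 (SE), adjusted P = 0.152). Cyp27a1, a mitochondrial sterol hydroxylase, had 13.3, 11, 6.95 and 7.1 in kidney, 4.24, 7.86 and 1.09 in TLS and 4.35, 8.53 and 6.47 in lymph nodes of proteinuric mice, with no DE call between any of these tissues (adjusted P = 0.101, 0.359 and 0.466).

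Ugt genes, of which 3 of 9 tested were higher in kidney than in TLS, include the members with the largest such difference. The Ugt1 locus on mouse chromosome 1 joins one of many alternative first exons, each with its own promoter, to a common set of later exons, and so yields enzymes with different substrates and the same membrane anchor. Because these later exons are shared (34.2% of the exon bases of Ugt1a7c and 58.1 to 60.6% of those of the other 7 Ugt1a genes), reads outside the first exons could be split between the Ugt1a genes.

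Ugt1a10 had 93.7, 59.9, 93.9 and 47.9 normalized reads in kidney and 5.94, 22.8 and 6.54 in TLS (log2 fold change 2.63 ± 0.41 (SE), adjusted P = 0.00122), and Ugt1a2 had 38, 51.5, 86.9 and 71 in kidney and 7.63, 7.86 and 0 in TLS (log2 fold change 3.41 ± 0.50 (SE), adjusted P = 0.000807). Neither overlapped between the tissues, and TLS H115 had no read of Ugt1a2. Ugt1a1, the bilirubin-conjugating enzyme, had 3.54, 6.75, 8.11 and 19.5 in kidney and 0.848, 3.14 and 0 in TLS (log2 fold change 1.75 ± 0.56 (SE), adjusted P = 0.0547). Ugt1a9 had 2.65, 4.22, 2.32 and 24.8 in kidney and 1.7, 3.93 and 0 in TLS (log2 fold change 1.13 ± 0.69 (SE), adjusted P = 0.315). Kidney H117 stood above the other kidneys for Ugt1a1, Ugt1a5, Ugt1a6b, Ugt1a8 and Ugt1a9 (30.2 for Ugt1a5 against 4.42 to 5.06), but not for Ugt1a2 or Ugt1a10; this library had the most ribosomal reads, and the part of that in these values was not tested.

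Outside the Ugt1 locus, Ugt2b38, of the steroid-conjugating group, had 46, 31.2, 18.5 and 8.87 in kidney and 1.7, 11 and 4.36 in TLS (log2 fold change 1.90 ± 0.50 (SE), adjusted P = 0.0236); TLS H20 overlapped kidney H117, and the call was lost without TLS H6 or kidney H6 or H20. Ugt3a2, of a family that transfers sugars other than glucuronic acid, had 97.3, 73.4, 337 and 78.1 in kidney and 11.9, 26.7 and 100.3 in TLS (log2 fold change 1.81 ± 0.66 (SE), adjusted P = 0.0903; adjusted P = 0.00424 with mouse as a block). Ugt3a1 had 37.1, 26.1, 92.7 and 40.8 in kidney and 0.848, 11 and 33.8 in TLS (log2 fold change 2.10 ± 0.71 (SE), adjusted P = 0.0705; adjusted P = 0.0126 with mouse as a block). For both Ugt3a genes, mouse H115 had the highest value in kidney and in TLS. Ugt8a, which makes galactosylceramide, was at or below 2.36 in every library.

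Glutathione S-transferases differed among themselves: 4 of 15 tested were higher in kidney than in TLS, while Gsta4, Gstm2 and Gsto1 had higher means in TLS. The alpha class detoxifies lipid peroxides and is abundant in the proximal tubule. Gsta2 had 118, 142, 268 and 197 in kidney and 20.4, 35.4 and 101 in TLS (log2 fold change 1.99 ± 0.48 (SE), adjusted P = 0.0146) without overlap, a call lost without TLS H6 or TLS H20; it shares sequence with Gsta1, which was read at 3.48 to 10.6 in kidney. Gsta3 varied little within each tissue, with 19.5, 20.2, 19.7 and 19.5 in the 4 kidneys and 6.78, 7.86 and 8.72 in TLS (log2 fold change 1.18 ± 0.26 (SE), adjusted P = 0.00858). Gsta4, which conjugates the peroxidation product 4-hydroxynonenal, had 44.2, 49.8, 83.4 and 40.8 in kidney and 111, 51.1 and 249 in TLS (log2 fold change -1.07 ± 0.65 (SE), adjusted P = 0.311). RefSeq promoters (250 bases before to 50 after the gene start, GRCm38.p6) were found for 54 of the 75 members and were searched on both strands for the letters TGACNNNGC, the core of the antioxidant response element bound by Nrf2. They occurred in 6 of 63 member promoters, compared with 12.4% of all 32851 promoters of the same length. Those of Gsta3 (chr1:21240335-21240634, plus strand) and Gstm5 (chr3:107895604-107895903, plus strand) are shown because both were among the DE genes above TLS in kidney; capitals mark the match.
Gsta3: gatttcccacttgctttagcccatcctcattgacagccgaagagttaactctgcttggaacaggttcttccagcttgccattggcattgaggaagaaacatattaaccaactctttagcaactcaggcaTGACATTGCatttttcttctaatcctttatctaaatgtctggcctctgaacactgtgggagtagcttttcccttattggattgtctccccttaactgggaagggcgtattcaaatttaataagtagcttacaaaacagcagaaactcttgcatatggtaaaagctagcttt
Gstm5: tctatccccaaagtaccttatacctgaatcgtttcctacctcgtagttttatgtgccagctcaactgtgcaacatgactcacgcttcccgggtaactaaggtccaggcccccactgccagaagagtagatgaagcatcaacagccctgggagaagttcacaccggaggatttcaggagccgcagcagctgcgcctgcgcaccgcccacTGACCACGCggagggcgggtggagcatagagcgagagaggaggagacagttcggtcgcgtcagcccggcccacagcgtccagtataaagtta
The gene of Nrf2, Nfe2l2, had 44.2, 34.6, 23.2 and 8.87 in kidney and 36.5, 37.7 and 27.3 in TLS (log2 fold change -0.42 ± 0.42 (SE), adjusted P = 0.569). The same promoters were also searched for GTTAATNAT, the half-site of the factor HNF1. It occurred in 4 of 63 member promoters (Sult1d1, Ugt1a1, Ugt1a9 and Ugt1a10), compared with 0.801% of all promoters. The Ugt1a promoters among them belong to the same locus, and those of Ugt1a9 and Ugt1a10 are alike around the site. These matches are therefore not independent of each other. The HNF4 sites CAAAGTCCA and CAAAGTTCA occurred in 0 member promoters, compared with 0.475% and 0.390% of all. Whether these factors act on the genes was not tested.

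In the mu class, which conjugates epoxides and aromatic compounds, Gstm1 had 305, 236, 646 and 215 in kidney and 178, 130.5 and 367 in TLS (log2 fold change 0.63 ± 0.47 (SE), adjusted P = 0.426), with overlapping groups. Gstm5, whose promoter stands above, had 78.7, 99.5, 89.2 and 49.7 in kidney and 11, 31.4 and 43.6 in TLS (log2 fold change 1.55 ± 0.48 (SE), adjusted P = 0.0468), with no overlap, but the call was lost in 6 of the 10 omissions of a single library. Gstm2 had 15, 22.8, 15.1 and 1.77 in kidney and 39, 33 and 20.7 in TLS (log2 fold change -1.25 ± 0.60 (SE), adjusted P = 0.193). Gstz1, which isomerises an intermediate of tyrosine breakdown, had 61.9, 46.4, 138 and 153 in kidney and 13.6, 24.4 and 48 in TLS (log2 fold change 1.73 ± 0.49 (SE), adjusted P = 0.0332), a call lost without TLS H6, TLS H20, kidney H115 or kidney H117. None of the theta-class genes Gstt1, Gstt2 and Gstt3, nor the mitochondrial Gstk1, was DE between kidney and TLS (adjusted P = 0.207, 0.103, 0.201 and 0.129). Gstp1, the pi-class enzyme of many cell types including lymphocytes, had 132, 162, 117.1 and 106 in kidney, 127, 84.1 and 66.5 in TLS and 151, 111 and 94.7 in lymph nodes of proteinuric mice. The 3 groups overlapped, and no comparison was DE (adjusted P = 0.378 for kidney against TLS, 0.786 for kidney against lymph node and 0.603 for TLS against lymph node). Gstp1 made up 11.8% ± 4.26 (SD) of Gst reads in kidney, 14.2% ± 7.37 in TLS and 53.1% ± 9.15 in lymph nodes of proteinuric mice. Of its 100-base windows, 25.1% occur in another gene, most often Gstp2, of which at most 3 reads were counted in a library.

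The 3 sulfotransferases all belonged to the Sult1 group, which sulfates phenols and amines. Sult1c2 had 34.5, 48.1, 45.2 and 37.3 in kidney and 4.24, 15.7 and 30.5 in TLS (log2 fold change 1.51 ± 0.46 (SE), adjusted P = 0.0428), without overlap; the call did not hold in 9 of the 10 omissions of a single library, the exception being TLS H115. Sult1d1, which sulfates catecholamines, had 67.2, 69.2, 117.1 and 40.8 in kidney and 3.39, 33 and 57.8 in TLS (log2 fold change 1.68 ± 0.67 (SE), adjusted P = 0.121; adjusted P = 0.0349 with mouse as a block). TLS H6 had 3.39 normalized reads, whereas TLS H115 was within the kidney range. Sult1a1, the phenol sulfotransferase, was found in every library at 2.43 to 31.3 and was not DE between kidney and TLS (log2 fold change 0.52 ± 0.49 (SE), adjusted P = 0.54).

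Among the carboxylesterases, Ces2c, an enzyme that hydrolyses drugs and acylglycerols, had 31.8, 30.4, 35.9 and 31.9 in kidney and 5.94, 7.86 and 10.9 in TLS (log2 fold change 1.80 ± 0.27 (SE), adjusted P = 0.00102). The groups were apart and the spread within each was small, and the call held without any single library. Ces1d, a triglyceride hydrolase of liver, kidney and fat, had 58.4, 45.5, 52.2 and 97.6 in kidney and 6.78, 24.4 and 9.81 in TLS (log2 fold change 2.18 ± 0.52 (SE), adjusted P = 0.0143); it was lost without TLS H6. Ces1f had 7.07, 6.75, 20.9 and 14.2 in kidney and 0.848, 3.93 and 5.45 in TLS (log2 fold change 1.43 ± 0.46 (SE), adjusted P = 0.0574; adjusted P = 0.0429 with mouse as a block), and Ces2e had 1.77 to 14.1 and 1.57 to 2.54 and did not pass the low-value filter.

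The levels in TLS were set beside those of tubule markers as percent of the mean kidney value. The 11 proximal tubule markers summed to 33.2% ± 25.2 (SD, n = 3) of kidney in TLS, but Kap, an androgen-regulated gene of the proximal tubule, made up 85.1% of that sum in kidney. Without it the other 10 summed to 28.7% ± 20.0 (chosen after seeing the data). Among genes with a mean of at least 10 in kidney and at most 3 reads in any lymph node of proteinuric mice, the median per gene was 20.7% over 10 of the markers, compared with 30.5% over 9 Cyp and 18.8% over 6 Ugt genes. The same median was 34.2% over 4 Gst, 41.7% over 2 Sult and 26.6% over 2 Ces genes. The order of the TLS was the same for the marker and Cyp sums. The 11 markers, Kap included, stood at 8.6% of the kidney level in TLS H6, 32.0% in TLS H20 and 59.0% in TLS H115, against 17.2%, 40.0% and 45.7% for Cyp. Without Kap, the other 10 stood at 15.2%, 19.2% and 51.6% in the same order. The Ugt1 sum did not follow that order, with 19.5, 54.2 and 8.72 in TLS H6, H20 and H115 against 140.0 to 245 in kidney. The order depended on the scale. Scaled to reads outside ribosomal RNA genes, Cyp was highest in TLS H20 (44.8%, against 39.4% in TLS H115). The 11 markers, Kap included, were then highest in TLS H115 (51.1%, against 36.1% in TLS H20). Relative to the kidney of the same mouse, both were highest in TLS H20 (Cyp 55.2%, markers 46.6%). Markers of the thick ascending limb stood at 60.5%, those of the distal convoluted tubule at 19.3% and those of the collecting duct at 110%. The part of tubule content in the enzyme levels was not tested.

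**Figure D4:**
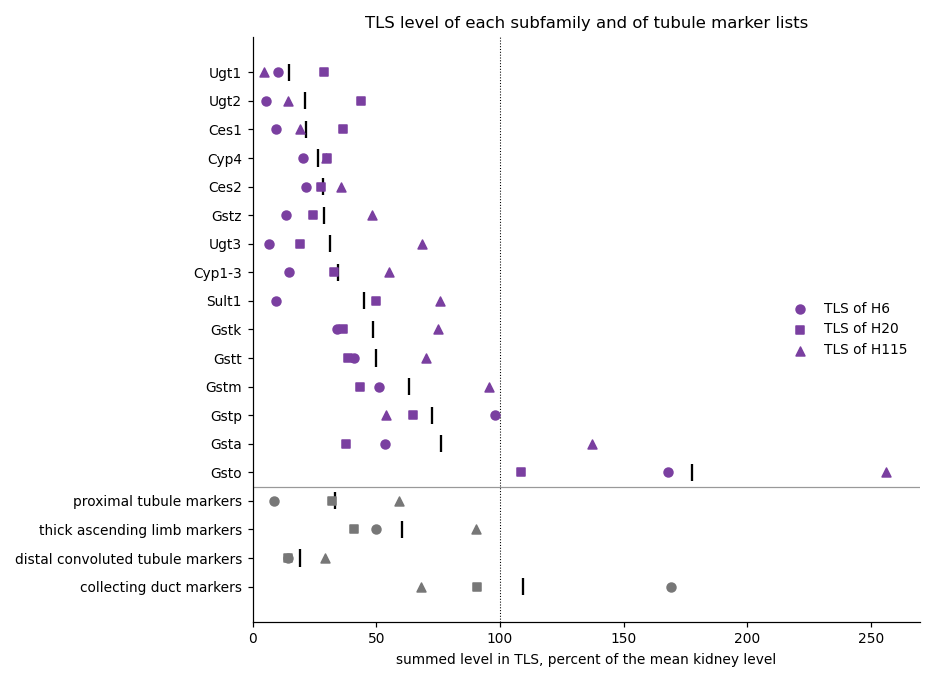
Level in each TLS as percent of the mean kidney level (x axis) for enzyme subfamilies and 4 lists of tubule markers; each symbol is 1 TLS (H6, H20, H115) and the black line is their mean. Ugt1 lies at a mean of 14.6%, Cyp4 at 26.6%, Gsta at 76.0% and Gsto at 178%, beside 33.2% for proximal tubule markers, a sum made up mostly by Kap. Within Gsta, Gsta4 stood at 251%, but Gsta2 at 28.9% and Gsta3 at 39.5%.

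Cyp2f2, a P450 of airway epithelium that activates naphthalene (GRCm38 chr7:27119909-27133660, plus strand), was the member that went against the others. It had no read in the 4 kidneys or the 7 lymph nodes and 6.78, 9.43 and 30.5 normalized reads in TLS H6, H20 and H115. Relative to 3 reads in the shallowest kidney library it was at least 2.93-fold higher in TLS (log2 fold change -2.78). It passed the low-value filter only through TLS, so its direction was fixed by the filter, and it did not pass the low-value filter without TLS H115, which held 28 of its 48 reads. Markers of urothelium, the lining of the renal pelvis, were also found in the TLS: their 8 genes summed to 475, 149 and 889 in the same TLS and to 0 to 23.2 in kidney. All 6 that were tested were higher in TLS, against 8.62% of all genes. These markers had no read in lymph nodes of proteinuric mice and few in kidney. They passed the low-value filter mainly through TLS, so their direction was in large part set by the filter. The order differed, since TLS H6 was lowest for Cyp2f2 and TLS H20 for these markers. Gsta4 and Gsto1, an omega-class enzyme with thioltransferase activity, were also highest in TLS H115 (36.5, 23.6 and 55.6 for Gsto1 in TLS against 23, 25.3, 24.3 and 14.2 in kidney; log2 fold change -0.71 ± 0.35 (SE), adjusted P = 0.207), but neither was DE. The part of urothelial RNA in these values was not tested.

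Genes of steroid hormone synthesis were read almost only in TLS H20. Cyp11a1, the side-chain cleavage enzyme that starts the pathway, had 11.8 normalized reads there (15 reads, exact Poisson 95% interval 6.6 to 19.4, counting error only) and none in the other 13 libraries. Cyp21a1 (58.9, 75 reads) and Cyp11b1 (18.1, 23 reads), the later steps of corticosteroid synthesis, and Cyp11b2 (1.57, 2 reads), aldosterone synthase, were named after their values were seen and had the same pattern, apart from 6 reads of Cyp21a1 in the lymph node of mouse D10. Cyp17a1, which the mouse adrenal cortex is known to lack, had none. The 5 adrenal cortex markers summed to 166 in TLS H20, to 4.63 in the D10 lymph node and to at most 2.18 in the others; the part of adrenal tissue in these reads was not tested.

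**Figure D5:**
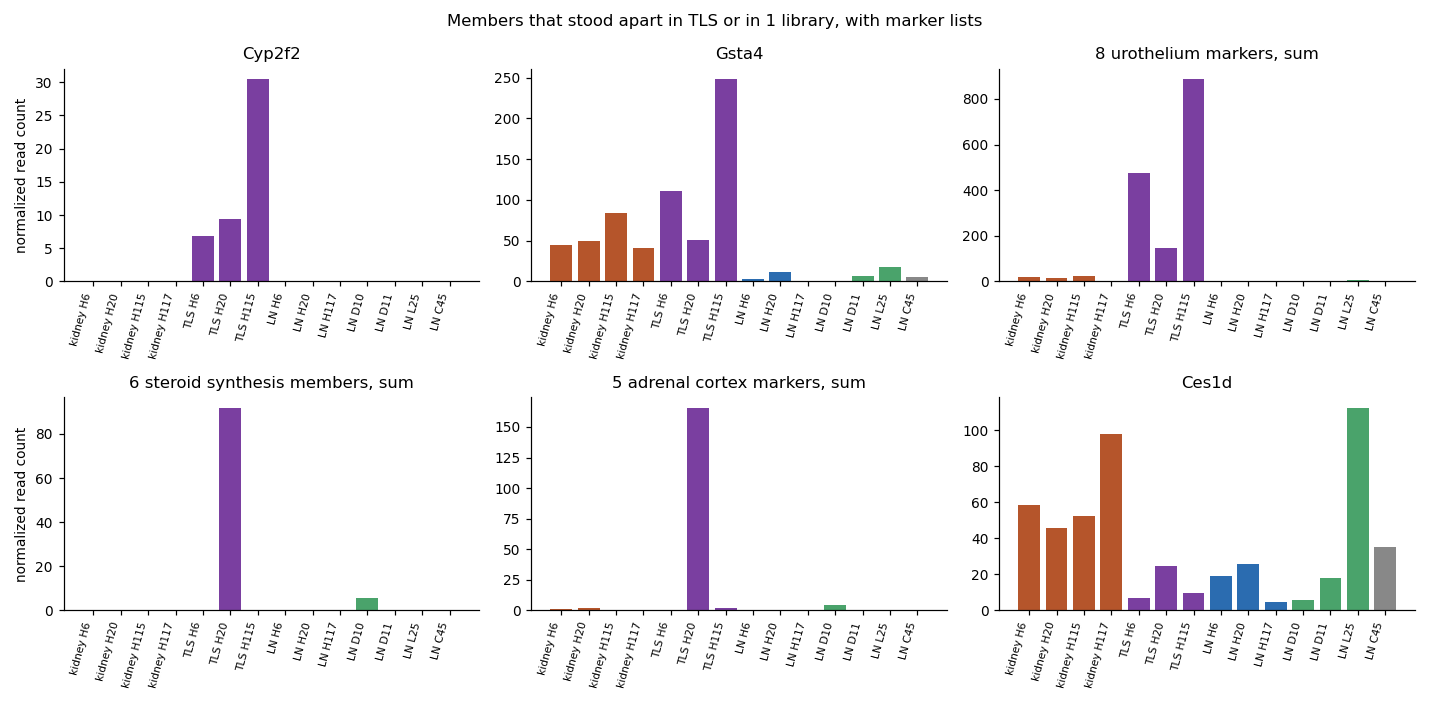
Normalized read counts per library (bars) of Cyp2f2, Gsta4, the sum of 8 urothelium markers, the sum of 6 steroid synthesis members, the sum of 5 adrenal cortex markers, and Ces1d. Cyp2f2 and urothelium markers are seen in all 3 TLS, steroid synthesis and adrenal markers in TLS H20, and Ces1d is highest in the lymph node of mouse L25.

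Kidney and lymph node of proteinuric mice differed more widely. Of 49 members tested, 40 were higher in kidney and none in lymph node (0 also at an unadjusted P below 0.05, with edgeR and with DESeq2), compared with 23.0% and 20.8% of all genes. They comprised 13 of 19 Cyp, 9 of 9 Ugt, 12 of 15 Gst, 3 of 3 Sult and 3 of 3 Ces genes tested. Of the 49, 28 had no read in these lymph nodes and passed the low-value filter only through kidney or TLS, so that these counts were in large part set by the filter. The median log2 fold change was 2.68, or 2.18 with the 30 members that had no read in one of the tissues set at their bound, against -0.05 for all genes. Since most of these members had no read in the 3 lymph nodes, fold changes are lower bounds against 3 reads in the shallowest of these: Cyp2j5 was at least 47.3-fold higher in kidney (adjusted P = 2.64e-07), Gsta2 at least 41.7-fold (8.72e-07), Cyp4a10 at least 38.4-fold (5.98e-07), Cyp2a4 at least 35.5-fold (1.17e-06) and Ugt3a2 at least 33.7-fold (2.12e-05). In all, 30 of the 40 calls held whichever library was left out; those of Cyp2e1, Sult1a1, Gstm4, Cyp24a1 and several Ugt1a genes did not, and Gstm4 was also lost with mouse as a block (adjusted P = 0.0611).

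TLS and lymph node, which both hold lymphocyte aggregates, were compared to ask which enzymes TLS carried that lymph nodes did not. In TLS 22 of 49 members were higher and none was lower (0 also at an unadjusted P below 0.05, with edgeR and with DESeq2), against 8.87% of all genes higher in TLS and 1.69% higher in lymph node. Of the 49, 28 had no read in lymph nodes of proteinuric mice and passed the low-value filter only through kidney or TLS. The direction of these counts was therefore in large part set by the filter. The 22 comprised 10 Cyp, 2 Ugt, 7 Gst, 2 Sult and 1 Ces genes, and the median log2 fold change of the 49 was 1.62 (1.19 with bounds). Cyp2j5 was at least 14.5-fold, Gsta2 at least 12-fold, Cyp2a4 at least 11.5-fold and Cyp4a10 at least 10-fold higher in TLS (adjusted P = 2.45e-05, 0.000126, 0.000121 and 7.18e-05). Gsta4 had 2.9, 11.4 and 0 in lymph nodes (log2 fold change 4.50 ± 0.69 (SE), adjusted P = 0.00123), and Gstm1 had 15.9, 25.6 and 27.5 (log2 fold change 3.07 ± 0.51 (SE), adjusted P = 0.00165). Gsto1 (14.5, 9.47 and 8.09 in lymph nodes; log2 fold change 1.62 ± 0.38 (SE), adjusted P = 0.0147) was also higher in TLS, but not with mouse as a block (adjusted P = 0.0723) or without TLS H115, lymph node H20 or lymph node H117. Cyp2f2, which passed the filter only through TLS, is among the 22 calls; it was lost with mouse as a block (adjusted P = 0.0603) and did not pass the filter without TLS H115. Ces1d had 18.8, 25.6 and 4.86 in lymph nodes against 6.78, 24.4 and 9.81 in TLS (log2 fold change -0.18 ± 0.56 (SE), adjusted P = 0.892). The 7 adipocyte markers summed to 833, 2282 and 213 in these lymph nodes and to 45.8, 536 and 44.7 in TLS, and their part in the Ces1d values was not tested. Of the 22 calls, 16 held whichever library was left out.

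In 4 members the mean was higher in lymph node than in kidney, at a few reads per library. Cyp4f18, a leukotriene B4 hydroxylase of myeloid cells, had 2.9, 5.68 and 5.67 in lymph nodes of proteinuric mice, 1.7, 1.57 and 3.27 in TLS and none in kidney. Ces2g had 1.45, 4.74 and 4.86 in these lymph nodes, 0 to 1.57 in TLS and 0 to 0.884 in kidney. Both were too low for the filter; with no filter, these 2 were higher in lymph node than in kidney. Cyp4f16 had 5.8, 6.63 and 6.47 in lymph nodes, 5.94, 3.93 and 2.18 in TLS and 5.3, 5.9, 2.32 and 0 in kidney (log2 fold change -0.71 ± 0.39 (SE), adjusted P = 0.166). Cyp4v3, a fatty acid hydroxylase, had 2.9, 2.84 and 2.43 in lymph nodes, 1.7, 2.36 and 3.27 in TLS and 0 to 1.69 in kidney.

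Lymph nodes of proteinuric and of antibody-positive mice were compared to ask whether the enzymes differ with disease state. Age and RNA kit also differed between these groups. None of 19 members tested was DE by limma, edgeR or DESeq2; of all 6810 genes tested, 0% were higher and 0% were lower by limma, with 215 at an unadjusted P below 0.05, 0 were DE by edgeR and 13 by DESeq2. The lowest adjusted P among the members was 0.998, and 1 member had an unadjusted P below 0.05: Cyp4f16, with 5.8, 6.63 and 6.47 in proteinuric and 1.85, 3.81 and 2.29 in antibody-positive mice (log2 fold change 0.87). Gstp1, with 120.5, 133 and 96.4 in the antibody-positive mice, differed by 0.01 ± 0.35 (SE) on the log2 scale. Ces1d varied widely, with 18.8, 25.6 and 4.86 in proteinuric and 5.56, 18.1 and 112 in antibody-positive mice, and Cyp2e1 had 0, 9.47 and 0 in the former and 3.71, 9.51 and 39 in the latter. The L25 lymph node was highest for both genes and also had the highest sum of 7 adipocyte markers (2948, against 213 to 2282 in the other 6 lymph nodes); the part of fat in these values was not tested. The lymph node of the 4-week-old mouse was a single sample with no replicate. In it Gstm1 had 30.4, Ces1d 34.9 and Cyp4f18 6.26, within the range of the other 6 lymph nodes. Gstp1 had 94, just below the lowest of these (94.7).

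Other genes of the pathway were read from a list of 75, of which 67 were listed in the table and 53 tested. By limma 20 were higher in kidney than in TLS, 46 in kidney than in lymph node and 25 in TLS than in lymph node. In the other direction 0 were DE in any of these comparisons, also at an unadjusted P below 0.05. Of all genes tested, 6.07%, 23.0% and 8.87% were DE in the first directions and 8.62%, 20.8% and 1.69% in the other. Genes with no read in these lymph nodes, such as Abcc2 and Aldh1a1, passed the low-value filter only through kidney or TLS. The electron donors were expressed in every tissue: Por had 44.2, 32.1, 205 and 49.7 in kidney, 15.3, 16.5 and 70.9 in TLS and 2.9, 11.4 and 8.9 in lymph nodes, and all 4 donors were DE between kidney and lymph node but none between kidney and TLS. Of the transporters, 6 of 9 were higher in kidney than in TLS, among them the organic anion importers Slc22a6 (log2 fold change 2.43, adjusted P = 0.000782) and Slc22a8 (2.55, adjusted P = 0.000351) and the conjugate exporter Abcc2 (19.5, 18.6, 13.9 and 7.1 in kidney; 0.848, 3.93 and 3.27 in TLS; adjusted P = 0.00611). Of the genes that turn glutathione conjugates into mercapturates, Ggt1 (1.88, adjusted P = 0.0404) and Dpep1 (2.07, adjusted P = 0.00239) were higher in kidney, while Acy3 had 318, 283, 1041 and 440.2 in kidney and 71.2, 74.7 and 450.3 in TLS (adjusted P = 0.0939). Cofactor genes passed in 2 of 9 cases, Gclm and Gsr of glutathione supply (1.42 and 1.15, adjusted P = 0.0429 and 0.0486). Further oxidising and reducing enzymes passed in 4 of 10 (Aldh1a1, Aldh2, Ephx2 and Fmo2) and further conjugating enzymes in 4 of 7, among them Glyat, Keg1 and Nat8.

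Among 8 regulators tested, Hnf4a, a factor of hepatic and tubular genes, had 94.6, 59.9, 195 and 106 in kidney and 10.2, 15.7 and 57.8 in TLS (log2 fold change 2.19 ± 0.52 (SE), adjusted P = 0.0138), and the vitamin D receptor gene Vdr had 19.5, 16, 40.6 and 23.1 in kidney and 1.7, 4.72 and 17.4 in TLS (log2 fold change 1.73 ± 0.50 (SE), adjusted P = 0.0355). Both had no read in lymph nodes of proteinuric mice. Keap1, the inhibitor of Nrf2, had 5.32 to 7.96 in kidney and 7.07 to 11.9 in TLS (log2 fold change -0.30 ± 0.28 (SE), adjusted P = 0.538). Ahr, the receptor of dioxins that induces Cyp1 genes, had no read in kidney and 1.7, 1.57 and 1.09 in TLS. The epoxide hydrolase Ephx1 did not follow the group, with 15.9, 11.8, 24.3 and 5.32 in kidney, 33.9, 25.2 and 18.5 in TLS and 17.4, 29.4 and 23.5 in lymph nodes (log2 fold change -0.84 ± 0.40 (SE), adjusted P = 0.183 for kidney against TLS). Of the genes that make or sense oxysterols, Hsd3b7 was the only one tested and was not DE (adjusted P = 0.852 for kidney against TLS). Between the lymph nodes of proteinuric and antibody-positive mice, 0 of 24 pathway genes tested were DE by limma, and 0 had an unadjusted P below 0.05.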

How the data were processed

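Poly(A) RNA of 14 samples was sequenced on the Ion Torrent PGM after RNase III fragmentation. The authors mapped the reads with CLC Genomics Workbench 8 to GRCm38 and deposited 1 table of normalized signal values per gene. In all deposited columns, 100% of values were whole multiples (tolerance 1e-06) of 1 over a DESeq size factor, with 1 as the lowest multiple, so the deposited signal was read as (reads + 1) divided by the size factor and whole reads were recovered. No column of per-sample values was left unmapped.

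Tissues of proteinuric mice were compared in 1 fit of 10 libraries and lymph nodes in a fit of 6, with limma 3.58.1 (trend, robust) in R 4.3.3 on log2(signal + 1), a minimum mean signal of 5 and Benjamini-Hochberg adjustment over all genes tested. The scripts were tested on simulated data. edgeR 4.0.16 and DESeq2 1.42.0 on the recovered reads, other pseudocounts and filters, omission of each library and mouse as a block served as alternatives. Samples of a number come from the same mouse: deviations from tissue means correlated at 0.351, 0.364 and 0.454 between kidney and TLS of a mouse (median -0.24 for 9 pairs of different mice), but at -0.34 to 0.202 between kidney and lymph node and at -0.27 and 0.0254 between TLS and lymph node. P-values measure the spread between these samples only. Intervals and limits cover counting error only.

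Genes were annotated with GENCODE M21, promoters with RefSeq (GRCm38.p6). Members named were the 5 DE genes with the largest fold change per comparison and direction, the 3 highest per family and tissue, those against the direction of their family, and a list by role; others were named after their values were seen, among them Gsta3, Gstm5, Cyp2d22, Cyp2d26, Ugt2b38 and the genes of steroid synthesis. Cyp1a1, Cyp7b1, Cyp26b1, Cyp27b1, Sult2b1 and Ces1g, on that list, were not analysed here. The members and lists were chosen with earlier results of these data known. Some genes of the pathway list are counted but not reported by name here.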

Additional observations from a re-analysis of the deposited data

Results flagged for a closer look

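In 3 of 41 kidney groups checked with Dixon's criterion for 4 samples (95% critical value, which chance exceeds in about 1 of 20 groups), 1 library stood far from the others. Cyp4a12b had 22.1 normalized reads in kidney H6 against 0 to 2.53 in the other 3 kidneys (gap over range 0.886). Ugt3a2 had 337 in kidney H115 against 73.4 to 97.3 (0.910). The Gst sum was 1722 in kidney H115 against 967 to 1033 (0.913); scaled to the reads outside ribosomal RNA genes, chosen after seeing the data, the gap over range was 0.775, below the critical value.

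In the lymph node of the 4-week-old mouse, Cyp1b1, a P450 of stromal cells that oxidises oestradiol, had 8.05 normalized reads (9 reads, exact Poisson 95% interval 3.68 to 15.3, counting error only), above the 0.951 to 5.74 of the other 6 lymph nodes. It was the 1 member of 17 checked that stood above all of these, and the difference was not tested.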

How the results depend on the processing

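Of the 49 members tested, 19 were DE between kidney and TLS, against 9 with edgeR (TMM or DESeq2 size factors), 12 with a minimum mean of 20, and 9 to 26 when 1 library was left out, lowest without TLS H6 and highest without TLS H115; the cause was not tested, apart from the minimum of 20, which tests fewer genes. DESeq2 called 13, a fit of kidney and TLS alone 15, other pseudocounts 17 and 22, and no filter 23. Between kidney and lymph node, 40 members were DE, against 25 with the minimum of 20 and 33 to 48 otherwise; between TLS and lymph node, 22 were DE, against 17 to 27. With mouse as a replicate block these counts were 27, 39 and 19. The block also ended the calls of Cyp4b1 and Gstt3 between TLS and lymph node (adjusted P = 0.0524 and 0.0641) and added Cyp51 there (0.0261) and Gstm7 between kidney and TLS; the other calls it changed stand beside the results. No DE call of a member changed direction under any alternative. Between the lymph nodes of proteinuric and antibody-positive mice, no alternative called a member. TLS percentages of the family sums moved by less than their SD when scaled to the reads outside ribosomal RNA genes (all members 43.3% in place of 44.6%). Without TLS H6, chosen after seeing the data, the percentage of all members was 51.9%. By family it was then 42.9% for Cyp, 30.8% for Ugt, 69.1% for Gst, 62.8% for Sult and 29.1% for Ces. Members under 5 in mean value rest on few reads.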
